A study of Mus musculus with 8 samples.

Results

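The genes described here are 6 parts of the complement system, the protease Masp1 together with C1ra, C1s1, C3, C4b and Serping1, out of 17631 genes in a comparison of mouse molars. They were chosen by their gene names with results of this comparison already known. Masp1 was taken as the top riser in the mutant, although 24 genes, mostly at low levels, had a larger ratio. The other 5 were taken because they belong to the same system. Their values are therefore given as a description and are no test. Each of the 6 has 1 row in the authors' deposited table.

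RNA came from the apical part, the root-forming end, of lower first molars of C57BL/6 mice at postnatal day 7.5. The mutant animals were Gli1-CreERT2;Runx2fl/fl and the control animals Runx2fl/fl, with 4 libraries each. All animals of both groups carried floxed Runx2 and were injected with tamoxifen (1.5 mg for each 10 g of weight) on postnatal day 3.5. CreERT2 is a recombinase that enters the nucleus when tamoxifen is bound, and here it is made where Gli1 is active, so Runx2 is removed from only some cells of the tooth. The control animals have no recombinase. Effects of the recombinase, of the Gli1-CreERT2 allele that carries it and of losing Runx2 cannot be told apart. Gli1 itself had a mean of 19.9 in mutant molars and 38.8 in control molars (adjusted p of the authors 0.0228, under the threshold of 0.05). The part of lower Gli1 in the other values was not tested. In the authors' deposited table Runx2, the targeted transcription factor, had a mean of 65.1 in mutant molars and 105.5 in control molars (adjusted p of the authors 0.0646, outside the threshold of 0.05). This is 1 value for the gene, and no value for the deleted part alone is given.

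Complement is a set of blood and tissue proteins that mark surfaces for removal and call immune cells. In the classical pathway the pattern reader C1q carries 2 kinds of protease, C1r and C1s, and in the lectin pathway the mannose-binding lectins, ficolins and collectins carry the MASP proteases. Both routes cleave C4 and C2 to build an enzyme that cleaves C3, the protein on which all routes meet. C1 inhibitor, the product of Serping1, is a serpin that blocks C1r, C1s and some, but not all, of the MASP proteases. Liver makes most circulating complement, while fibroblasts and macrophages make several components locally.

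Among the 6 genes, Masp1 differed most, at 3.73-fold the control mean. C4b stood 1.67-fold and C3 1.24-fold above the control mean, both at low levels. C1s1 lay 1.14-fold above, C1ra 1.10-fold below and Serping1 1.03-fold below the control mean. All means and p-values here come from the authors' deposited table, except adjusted p-values given after a trend with GC content and length was subtracted. Each group is given there as 1 mean of normalised signal, so the values of single libraries and their spread are unknown. The labels do not say whether each library is 1 animal, and the p-values then reflect how far these libraries scatter, which may be technical. FDR is the authors' step-up false discovery rate, which is their p-value adjusted over all genes, and a gene is called when this adjusted p is under 0.05. Masp1 was the 1 called gene of the 6, in the higher direction, where 0.471% of all 17631 genes were called higher and 0.318% lower. That count repeats the choice of Masp1 and says nothing further about the 6 genes.

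**Figure D1:**
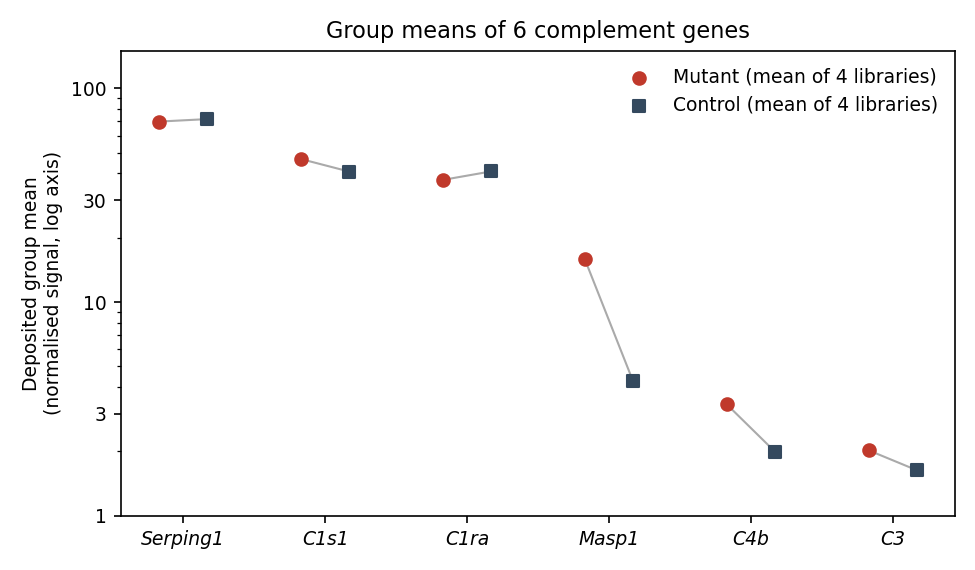
Deposited group means (normalised signal, logarithmic axis) of the 6 complement genes in mutant molars (red circles) and control molars (dark squares), each the authors' mean of 4 libraries, in order of mutant mean per kb of exon. Masp1 stands at 15.9 in mutant molars and 4.26 in control molars, while the means of Serping1, C1s1 and C1ra lie close together. No error bars are drawn because the table holds no values per library.

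Masp1 (ENSMUSG00000022887, protein-coding) lies on chromosome 16 from 23449417 to 23520815 on the minus strand of GRCm38, the assembly that mm10 names. Its product is a protease bound to the recognition molecules of the lectin pathway. Its mean was 15.9 in mutant molars and 4.26 in control molars, a log2 ratio of 1.90 (FDR 0.0213), and its unadjusted p of 1.21e-06 was the lowest in the table. By size of the ratio it ranked 25 of 17631. Of the 24 genes with a larger ratio, 5 were called, 22 had a mutant mean under 5, and 1 reached the median of all genes in its higher mean (11.8). That gene was mt-Atp8, a mitochondrially encoded subunit of ATP synthase whose gene overlaps mt-Atp6 and can share reads with it, with means of 691.9 in mutant molars and 164.1 in control molars (FDR 0.102). Next below Masp1 among called genes at or above that median stood Col8a1, a short-chain collagen, with means of 34.5 in mutant molars and 12.01 in control molars.

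**Figure D2:**
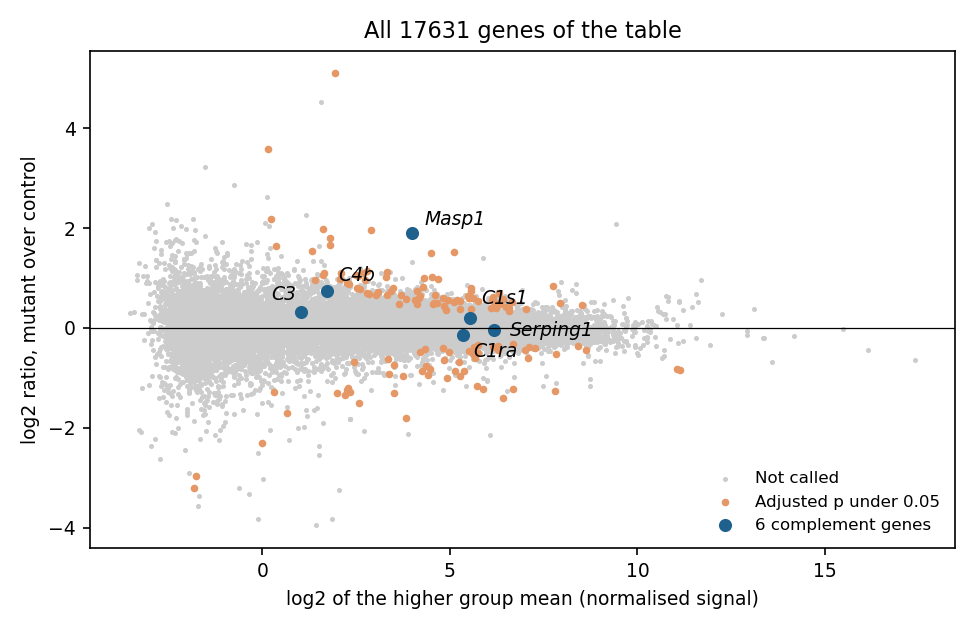
The log2 ratio of mutant over control (vertical axis) against log2 of the higher group mean (horizontal axis, normalised signal) for all 17631 genes. Orange points are called at an adjusted p under 0.05, grey points are not, and blue points are the 6 complement genes, of which Masp1, at a log2 ratio of 1.90, is also called. The other 5 blue points lie inside the grey cloud at log2 ratios from -0.13 to 0.74.

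The value of Masp1 covers several proteins. By alternative splicing the gene is known to make more than 1 protease with a common front part and different protease domains, and also a short form that has no protease domain. GENCODE M21 lists 4 transcripts, 3 of them coding, with 2112, 2199 and 1155 coding bases. These 3 share 8 coding exons, and Masp1-201 has 6 coding exons of its own, Masp1-203 has 1 and Masp1-204 has 1. They end 71.4, 52.5 and 41.5 kb from the gene start. The deposited table has 1 value per gene, so which of these forms was higher in mutant molars was not tested. Of 50-base stretches of the longest Masp1 transcript, 0.321% also occur in transcripts of another gene, so most of its sequence is its own.

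**Figure D3:**
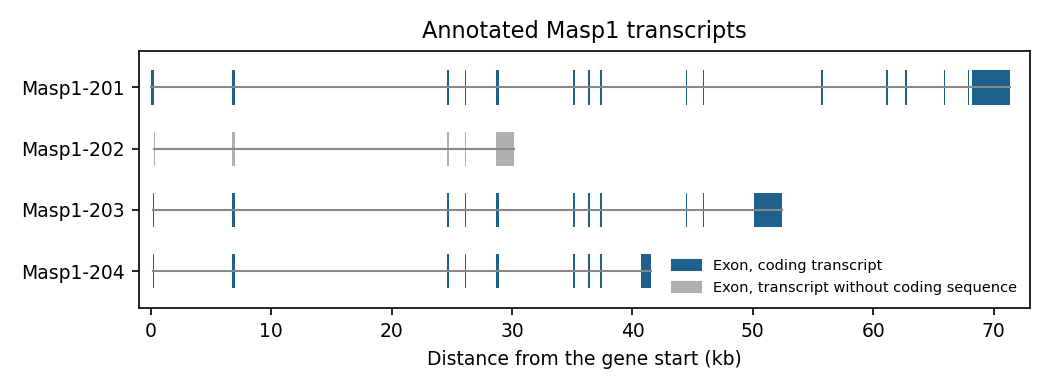
The 4 Masp1 transcripts of GENCODE M21 drawn from the gene start (horizontal axis, distance in kb, in the direction of transcription). Boxes are exons, blue in coding transcripts and grey in Masp1-202, which has no coding sequence, and lines are introns. The 3 coding transcripts share their first part and end at 71.4, 52.5 and 41.5 kb.

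The nearest measured gene on each side of Masp1 had nearly equal means in both groups, and unmeasured genes between them could not be compared. St6gal1, a sialyltransferase gene 89.1 kb away, had means of 36.8 in mutant molars and 36.4 in control molars (FDR 0.917). Gm45338, a gene model that overlaps the start of Masp1, had only 0.201 in mutant molars and 0.191 in control molars. The 5 genes closest to Masp1 in both group means, by distance in log2 units over the 2 means, were Krt15, Gbp2b, Gm45062, Enpep and Tfap2b, at 1.98 to 2.50 times their control means. Krt15, a keratin gene, was nearest at a distance of 0.574, with 15.8 in mutant molars and 6.34 in control molars (FDR 0.0545). Enpep, which encodes a membrane aminopeptidase, was the called gene among these, with 10.1 in mutant molars and 4.60 in control molars (FDR 0.0484). All 5 ratios were below the 3.73 of Masp1. With 2 means per gene, such closeness says only that no other genes lay nearer in these levels.

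C1ra and C1s1, the genes of the classical proteases, stood together at about equal levels. C1ra (chromosome 6, 124512405 to 124523443, plus strand) encodes C1r, which cleaves itself and then C1s, and had means of 37.3 in mutant molars and 40.9 in control molars (log2 ratio -0.13, FDR 0.657). C1s1 (chromosome 6, 124530345 to 124542359, minus strand) encodes C1s, which cleaves C4 and C2, and had means of 46.7 in mutant molars and 40.8 in control molars (log2 ratio 0.19, FDR 0.498). The ratio of the C1ra mean to the C1s1 mean was 0.799 in mutant molars and 1.00 in control molars. The genes lie 6.90 kb apart with C1rl, a C1r-like gene, 1.76 kb from C1ra on the other side, and C1rl had means of 3.81 in mutant molars and 3.83 in control molars (FDR 0.962).

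Both proteases have a near copy in the mouse, C1rb and C1s2, which limits how well the authors' counting could separate them. Of 50-base stretches of the C1ra transcript, as long as 1 read of the 2 x 50 nt libraries, 50.8% occur unchanged in a transcript of another gene, chiefly C1rb, and of C1s1 39.0%, chiefly in C1s2. The coding sequences of C1ra and C1rb are 98.0% identical outside a gap of 3 bases, with 42 substitutions. C1rb lies on chromosome 6 from 124570294 to 124581171, plus strand. The stretches below, of 60 coding bases each from GENCODE M21 on GRCm38, are the part in which C1ra (coding bases 1798 to 1857) and C1rb (1795 to 1854) differ most. They show the kind of difference that a read must cover to be assigned, with capitals at the 11 bases that differ.
C1ra: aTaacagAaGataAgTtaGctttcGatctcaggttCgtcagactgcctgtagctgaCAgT
C1rb: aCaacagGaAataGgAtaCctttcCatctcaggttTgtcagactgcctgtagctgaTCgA

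Levels assigned to the copies were low in both groups. C1rb had means of 0.400 in mutant molars and 0.214 in control molars (FDR 0.783), and C1s2 had 0.818 in mutant molars and 0.591 in control molars (FDR 0.996). C1ra and C1s1 thus took nearly all signal given to each pair, and reads that fit either copy cannot be told apart.

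The protease means can be set against each other within a group. Masp1, C1ra and C1s1 summed to 99.8 in mutant molars and 85.9 in control molars, of which Masp1 took 15.9% in mutant molars and 4.96% in control molars. These shares use means as deposited and would be smaller per kb of exon. Masp1 has 9833 exonic bases, against 2981 for C1ra and 3129 for C1s1. On the scale of mean signal per kb of exon, Serping1 had the highest level of the 6 genes in both groups, at 30.1 in mutant molars and 30.9 in control molars. C1s1 followed with 14.9 per kb in mutant molars and 13.0 in control molars, and C1ra with 12.5 per kb in mutant molars and 13.7 in control molars, so these neighbours changed places between the groups. Masp1 stood at 1.61 per kb in mutant molars and 0.433 in control molars. C4b had 0.583 per kb in mutant molars and 0.350 in control molars, and C3 had 0.393 per kb in mutant molars and 0.317 in control molars, the lowest of the 6. Whether the deposited means were already divided by length is not given in the sources used here, but the order of the 6 genes in each group was the same without this division.

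Of the genes for the proteins on which both routes act, C4b and C3 were scarce and C2 was not. C4b (chromosome 17, 34728380 to 34743882, minus strand) encodes C4, which is cleaved in both routes. Its means were 3.32 in mutant molars and 1.99 in control molars (log2 ratio 0.74, unadjusted p of 0.0491 by the authors, FDR 0.257). Of 50-base stretches of the C4b transcript, 35.2% also occur in C4a, a copy that was not analysed here, so the share of C4b reads is uncertain. C3 (chromosome 17, 57203970 to 57228136, minus strand) had means of 2.02 in mutant molars and 1.63 in control molars (log2 ratio 0.31, FDR 0.657). C2, the partner of C4 in the C3-cleaving enzyme, had means of 22.0 in mutant molars and 21.1 in control molars (FDR 0.960). Neither C4b nor C3 nor C2 passed the threshold. Stk19, the nearest gene of the table after C4b, had means of 7.32 in mutant molars and 10.1 in control molars (FDR 0.126), and Gpr108, beside C3, had 35.9 in mutant molars and 38.5 in control molars (FDR 0.504).

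Serping1 (chromosome 2, 84765387 to 84775444, minus strand), which encodes C1 inhibitor, had means of 69.9 in mutant molars and 71.8 in control molars (log2 ratio -0.04, FDR 0.840). The ratio of the Masp1 mean to the Serping1 mean was 0.227 in mutant molars and 0.0593 in control molars. The other neighbours of the 6 genes, Tnfsf9 by C3, Tnxb by C4b and Gm19426 and Ube2l6 by Serping1, had log2 ratios from 0.08 to 0.52, none called. None of the 50-base stretches of the Serping1 or C3 transcript occurs in another gene. With each group scaled to the same sum of means, the median log2 ratio of all genes goes to 0.14 from 0.00. On that scale C1ra, at 0.01, and Serping1, at 0.10, lie above the control instead of below it. With the 10 most abundant genes left out of the sums, both lie below it again, at -0.12 and -0.03. Serping1 also lies above the control, at 0.05, when the trend with GC content and length of transcripts is subtracted. Masp1, C1s1, C3 and C4b are above the control on every scale tried.

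RefSeq promoter sequences (GRCm38.p6, 250 bases before to 50 after the start) were at hand for C1ra, C1s1 and C3. None of these windows holds the letters TGTGGT, a core recognised by RUNX proteins, on either strand, while 16.8% of all promoter windows do. This says only that these letters are not in these windows.

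The rest of the complement system showed smaller differences than Masp1, which follows largely from the choice of Masp1 as the top riser. Of 62 complement genes listed by role, 41 were in the table, and Masp1 was the 1 called gene. None of the other 35 besides the 6 was called in either direction, and 3 of these 35 (8.57%) had an unadjusted p under 0.05, against 19.3% of all genes. The 35 genes had a median log2 ratio of 0.18, with 26 above and 9 below the control, while the median over all 17631 genes was 0.00 and 50.6% were above the control. With equal sums 29 of the 35 lay above the control, and 27 with the 10 most abundant genes left out of the sums. These scalings move all genes alike, and took the median over all genes to 0.14 and 0.01. The median of the 35 stayed 0.175 above that of all genes in both. The spread of the 35 ran from -0.67 for Colec11 to 0.90 for C1rb, both of them with means under 1.

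Recognition molecules of both pathways were measured. C1qa, 1 of the 3 chains of C1q, had means of 65.9 in mutant molars and 56.8 in control molars (FDR 0.368), and C1qb had 53.3 in mutant molars and 48.7 in control molars (FDR 0.613). Fcna, a ficolin that carries MASP proteases, had 1.89 in mutant molars and 1.61 in control molars (FDR 0.643), and the collectin Colec11 had 0.105 in mutant molars and 0.167 in control molars (FDR 0.564). Of the 9 lectin pathway genes listed, 5 were in the table, and Masp2, Mbl1, Mbl2 and Fcnb were not analysed here. In the alternative pathway, Cfp, which encodes the stabilising protein properdin, had 10.9 in mutant molars and 8.26 in control molars (FDR 0.369). Cfb, a protease gene of that pathway, had 1.63 in mutant molars and 1.11 in control molars (FDR 0.442), and Cfd, also listed there, was not analysed here. Of the terminal components C8g was measured, with 0.659 in mutant molars and 0.691 in control molars.

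Regulators did not pass in either direction. Among those listed as soluble regulators, Csmd1, a large membrane protein with complement control repeats, had 2.50 in mutant molars and 1.68 in control molars (FDR 0.291). Clu, a chaperone that holds back the terminal complex, was named after its values were seen because it was the most abundant of the 41 genes, with 3077 in mutant molars and 3894 in control molars (FDR 0.328). Among membrane regulators Thbd, the thrombin receptor of vessel walls, had 75.3 in mutant molars and 51.6 in control molars (FDR 0.230), and Susd4 had 16.6 in mutant molars and 20.5 in control molars (FDR 0.274). The 7 membrane regulators had a median log2 ratio of -0.19, with 3 above and 4 below the control, which differed in sign from the medians of the other role groups except the single terminal gene.

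**Figure D4:**
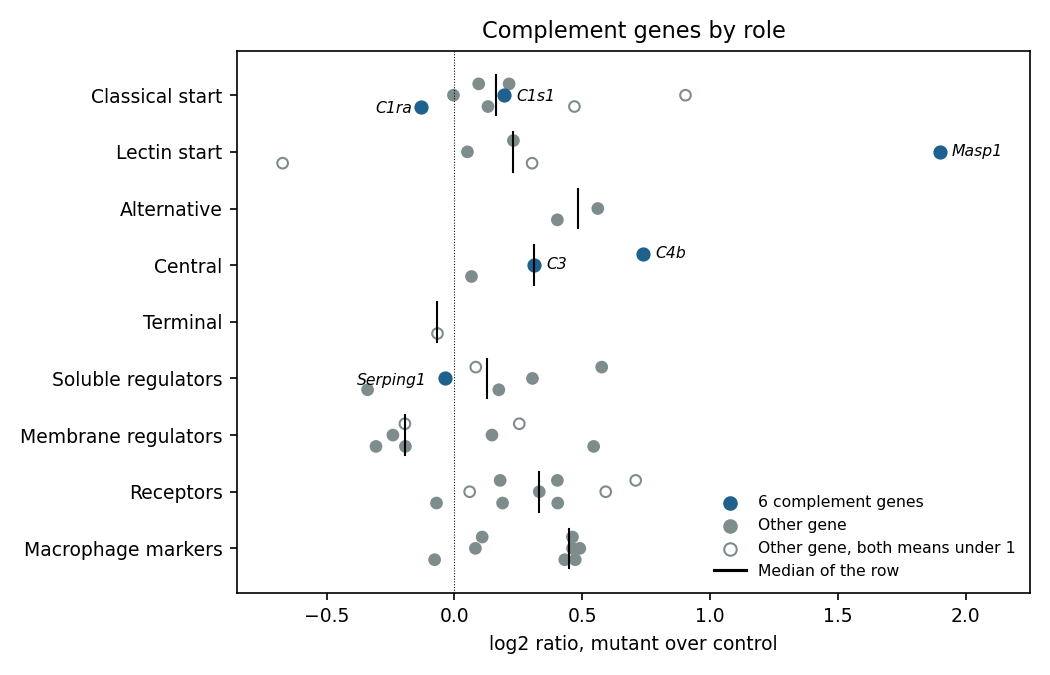
Log2 ratio of mutant over control (horizontal axis) for the 41 complement genes of the table by role, and for 8 macrophage markers (bottom row). Blue points are the 6 complement genes, grey points other genes, open points genes with both means under 1, and black bars the median of each row. Masp1, which was chosen as the top riser, stands at 1.90, beyond all other points. The receptor and macrophage rows have medians of 0.33 and 0.45.

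Receptors of complement fragments and macrophage markers stood above the control together. Of 9 receptor genes measured, 8 were above the control, with a median log2 ratio of 0.33 and none called. Cd93, a receptor of vessel walls and myeloid cells, had 75.4 in mutant molars and 59.9 in control molars (FDR 0.199), and Itgam, a chain of complement receptor 3, had 8.61 in mutant molars and 6.52 in control molars (FDR 0.314). Of 8 macrophage markers, 7 were above the control, with a median of 0.45 and none called. Adgre1 had 28.2 in mutant molars and 20.5 in control molars (FDR 0.252), Csf1r had 140.4 in mutant molars and 130.2 in control molars (FDR 0.661), and Mrc1, named after its values were seen as the marker with the lowest p, had 111.7 in mutant molars and 81.1 in control molars (FDR 0.0876). The summed means of the 8 markers were 426.0 in mutant molars and 357.1 in control molars. In bulk tissue, more cells of a type and more RNA per cell cannot be told apart, and the part of macrophages in the C1q and receptor values was not tested.

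Other cell types that make complement or its targets were checked in the same table. Of 6 hepatocyte genes only Alb was in the table, at 0.427 in mutant molars and 0.331 in control molars. Most fibroblast genes were abundant, with Pdgfra at 322.5 in mutant molars and 276.9 in control molars (FDR 0.238) and Dcn at 775.8 in mutant molars and 739.2 in control molars (FDR 0.776). Of the 6, 4 were above and 2 below the control, and none was called. The vessel markers Pecam1 and Cdh5 had 51.3 and 88.1 in mutant molars and 52.7 and 79.2 in control molars, and Kdr, the marker of that list with the lowest p and named after its values were seen, had 52.6 in mutant molars and 41.6 in control molars (FDR 0.213), none called. Neutrophil genes were scarce, with S100a8 at 5.28 in mutant molars and 4.10 in control molars and S100a9 at 4.55 in mutant molars and 3.96 in control molars. Of the 3 measured, 2 were above and 1 below the control, none called. Genes of inflammation and interferon signalling, of which 9 of 12 were in the table, had a median log2 ratio of 0.40 with 8 above the control and none called. Isg15 had 3.85 in mutant molars and 2.26 in control molars (FDR 0.271). Of the contact-system and clot-dissolving proteases listed because C1 inhibitor restrains several of them, Plat had 50.6 in mutant molars and 47.6 in control molars and Plau 6.08 in mutant molars and 5.86 in control molars, neither called.

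Tooth markers were present: the dentin gene Dspp averaged 7360 in mutant molars and 7714 in control molars and the enamel gene Amelx 112174 in mutant molars and 174946 in control molars. They do not show which part of the molar was taken. Ambn, Krt14, Krt5 and Dmp1 were present and not called. Among the listed bone and red blood cell markers, Sp7, Bglap and Hba-a1 were called lower, and Bglap and Hba-a1 have near-identical copies that share reads. Which cells of the sample made these RNAs was not tested. Sp7, which encodes a transcription factor of bone-forming cells, had 117.7 in mutant molars and 154.8 in control molars (FDR 0.0447). The bone gene Bglap had 1252 in mutant molars and 2234 in control molars (FDR 0.0484), and the bone gene Ibsp, not called, had 80.4 in mutant molars and 179.5 in control molars (FDR 0.121). The globin gene Hba-a1 had 92.5 in mutant molars and 223.3 in control molars (FDR 0.0484), and Hbb-bs, not called, had 189.9 in mutant molars and 422.7 in control molars (FDR 0.0700). With the GC and length trend subtracted, none of Sp7 (adjusted p 0.143), Bglap (adjusted p 0.296) and Hba-a1 (adjusted p 0.294) was called. The muscle genes Myl1 (FDR 0.162) and Ckm (FDR 0.249) stood at 0.395 and 0.181 in mutant molars, and at 1.10 and 0.501 in control molars. The part of these differences in the Masp1 value was not tested.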

How the data were processed

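The data are a comparison of 4 mutant and 4 control mouse molar libraries. The submitters' processing notes name STAR 2.6.1d, Partek and mm10 but give no roles, and how genes were counted, normalised, filtered and modelled is not given in the sources used. Per the file headers, the authors deposited, for each of 17631 genes, 2 group means of normalised signal, a total that is also a signal (4 times the sum of both means for all genes, tolerance 1e-06), their ratio, a signed fold change (a score), the authors' p-value and its false discovery rate. Depth per library is unknown. The deposited rate equals Benjamini-Hochberg adjustment of the p-values for all genes.

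Genes were called at an adjusted p under 0.05 of the authors. Log2 ratios, list counts and medians, distances and shared stretches were computed from the table and from GENCODE M21, whose symbols matched 99.6% of genes (Python 3.11.15, biopython 1.88). A trend on transcript GC content and exonic length was fitted with mgcv 1.9.3 in R 4.3.3 over 13128 genes, and its subtraction was tested on simulated data. The alternatives were another threshold, minimum levels, scalings, a pseudocount of 1 and this subtraction.

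The 6 genes and all lists were chosen with earlier results of these data known. Named genes were the 6, all called complement genes, the 2 lowest p-values of each role list, the first 2 measured genes of each marker list, the neighbours of the 6 and the 5 genes closest to Masp1. Runx2, Gli1, Clu, Mrc1, Kdr, Sp7, mt-Atp8 and Col8a1 were added, and the remaining neighbours and some tissue markers are given without single values. Of the genes this rule takes, 2 are not reported here.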

Additional observations from a re-analysis of the deposited data

How the results depend on the processing

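Masp1 was the 1 complement gene called higher, and none was called lower, under every alternative run: an adjusted p of 0.1, the minimum levels and the subtraction of the GC and length trend. For Masp1, chosen as the top riser and with the lowest p, the looser threshold and the minimum levels could not remove the call. Only the subtraction could, and there its adjusted p was 0.0179. Over all genes, the threshold of 0.1 gave 354 higher and 287 lower, and the subtraction gave 21 higher and 9 lower, against 83 and 56. The log2 ratio of Masp1 ran from 1.68 with a pseudocount of 1 to 2.03 with each group scaled to the same sum. That scaling took the median of the 41 complement genes to 0.33 and of the 35 others to 0.32, against 0.19 and 0.18, and moved all genes with them. The other alternatives moved both medians by under 0.1. C1ra changed sign with equal sums, and Serping1 with equal sums, at 0.10, and with the subtraction, at 0.05. Neither changed sign when the 10 most abundant genes were left out of the sums. No paired analysis was possible because the table holds group means, and leaving out each library was not run for the same reason. Low levels of C3 and C4b limit their ratios: with a pseudocount of 1 they were 0.20 and 0.53.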
